A study of Mus musculus with 6 samples.

Results

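The isoforms that make glycerolipids were followed on microarrays of 3T3-L1 adipocytes, a mouse embryonic fibroblast line differentiated to fat cells in culture. They were 10 genes in 4 enzymatic steps: Gpam, Gpat3 and Gpat4 of the glycerol-3-phosphate acyltransferase (GPAT) step, Agpat2, Agpat3 and Agpat4 of the acylglycerol-phosphate acyltransferase (AGPAT) step, Lpin1 and Lpin2 of the lipin step, and Dgat1 and Dgat2 of the diacylglycerol acyltransferase (DGAT) step. Members were chosen by gene symbol, with older names for Gpat3 (Agpat9) and Gpat4 (Agpat6), and every probe of these symbols was kept, which gave 22 of the 45281 probes on the array. The 3 vehicle arrays came from adipocytes that received ethanol, and the 3 DEX arrays from adipocytes that received 500 nM dexamethasone, a synthetic glucocorticoid, for 6 h. Both groups had spent 24 h in medium with stripped serum before treatment, and both had been differentiated days earlier with a cocktail that itself contained dexamethasone, so the vehicle group was withdrawn from the drug and not naive to it. All 6 arrays were of this single cell line, and the triplicates were not stated to be separate cultures, so the p-values cover only how far these samples differ, which may be technical.

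In this pathway GPAT enzymes acylate glycerol 3-phosphate to lysophosphatidic acid, and AGPAT enzymes add another acyl chain to make phosphatidic acid. Lipins remove the phosphate to give diacylglycerol, which DGAT enzymes acylate to triglyceride, the storage fat of adipocytes. Phosphatidic acid and diacylglycerol are also the branch points to phospholipids, and glucocorticoids are known for acting on both the storage and the release of fat in adipose tissue.

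The arrays were alike in depth of detection. Between 15800 and 16523 probes per array had a signal above the negative control beads (detection p under 0.05), and median raw signals lay between 91.9 and 96.8. Correlations of log2 signals over the tested probes were 0.974 to 0.994 within a group and 0.958 to 0.978 between groups. Of 12 adipocyte marker genes with a probe, 12 were detected, and their summed signal after normalization was 71590 to 75170 on vehicle arrays and 81450 to 87690 on DEX arrays. This sum is weighted to the brightest probes. By gene, 0 of the 12 were higher and 1 was lower: Plin1, which coats lipid droplets, fell 2.05-fold (adjusted p = 0.00289). The 9 preadipocyte or fibroblast markers were also all detected, at sums of 22740 to 25720 in vehicle and 23710 to 27320 in DEX. Of the 6 macrophage markers 1 was detected on at least 3 arrays and of the 6 endothelial markers 0 were, with 4 of each list on no array. Their summed signals were 157 to 187 in vehicle and 138 to 180 in DEX for macrophage markers, and 143 to 155 and 148 to 153 for endothelial markers. The part of cell composition in the results was not tested, and in bulk RNA fewer cells of a type and less RNA per cell cannot be told apart. Each of 5 glucocorticoid-induced genes chosen as a check of the treatment was higher with DEX, among them Fkbp5, a chaperone of the glucocorticoid receptor, at 64.4-fold (adjusted p = 3.15e-07).

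After 6 h of DEX, 3 of the 10 genes rose, 2 fell and 5 did not pass the test. Lpin1 (2.75-fold), Agpat4 (2.54-fold) and Gpat4 (1.86-fold) rose, each in another step of the pathway. Gpat3 (1.99-fold) and Dgat1 (1.62-fold) fell. Gpam, Agpat2, Agpat3, Lpin2 and Dgat2 did not pass. The test was limma's moderated test on normalized log2 signals, with Benjamini-Hochberg adjustment over 16317 tested probes and a call at an adjusted p under 0.05, and a gene was counted by its tested probe with the highest mean signal. Among all 9144 genes tested this way, 7.58% were called, 4.52% as higher and 3.06% as lower. At a change over 1.5 fold as well, the members still gave 3 higher and 2 lower, where 4.44% and 2.89% of all genes passed. Over 2 fold, 2 members were higher and 0 lower, and 3.48% of all genes passed in either direction. The DEX and vehicle signals did not overlap for 6 of the 10 members, and for 27.9% of all genes.

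The median log2 fold change of the 10 members was -0.16, beside -0.06 over all tested genes, and their median absolute log2 fold change was 0.57, beside 0.20. The members were chosen with earlier results of these data known. Their counts and medians therefore cannot be read as those of genes picked without regard to the data. The median signal of the members was 10.16 on the log2 scale, against 7.89 for all tested genes, so most of these isoforms were read well above background. The count of higher genes was 3 under each alternative processing and without any 1 array, apart from 2 at the 2-fold threshold. The count of lower genes was less stable. Leaving out any vehicle array or DEX replicate 2 gave 0, and leaving out DEX replicate 1 or 3 gave 1.

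**Figure D1:**
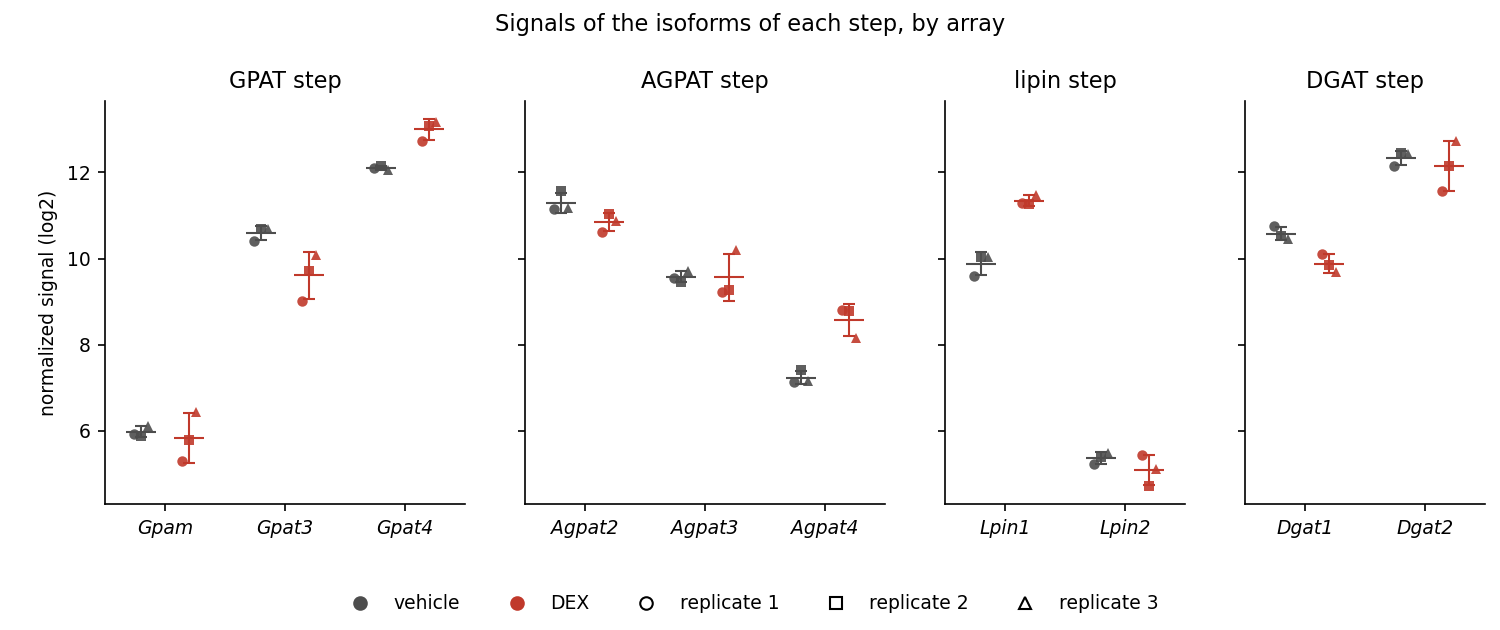
Normalized log2 signal (vertical axis) of the representative probe of each isoform, in 4 panels by step, for the 3 vehicle arrays (grey) and the 3 DEX arrays (red), with the replicate number as the symbol and the mean and SD as bars. Heights are to be compared within a gene only, since probes differ in brightness. The DEX arrays sit above all vehicle arrays for Gpat4, Agpat4 and Lpin1 and below them for Gpat3, Agpat2 and Dgat1.

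The GPAT step makes lysophosphatidic acid and is often taken as the entry to glycerolipid synthesis. Its isoforms moved apart after DEX: Gpat4 rose, Gpat3 fell, and Gpam did not pass. Gpat4, an isoform of the endoplasmic reticulum, gave log2 signals of 12.11, 12.16 and 12.06 on the vehicle arrays and 12.73, 13.09 and 13.18 on the DEX arrays (probe ILMN_1252335). All DEX values lay above all vehicle values. The mean went from 12.11 ± 0.0506 to 13.00 ± 0.240 (SD, n = 3 each), a log2 fold change of 0.89 (SE 0.16, 95% confidence interval 0.53 to 1.25, adjusted p = 0.00926). In raw, uncorrected signal the vehicle arrays read 4792, 4752 and 4843 and the DEX arrays 6944, 8047 and 8601.

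The other Gpat4 probes were near the detection limit. ILMN_1248395 was detected on 0 vehicle and 3 DEX arrays, at log2 signals of 4.73, 4.86 and 5.00 in vehicle and 5.01, 5.18 and 5.03 in DEX. As it was not well above background in vehicle, the change between its group means has only a lower bound, 1.04-fold higher in DEX, which takes no account of the spread. The probe did not pass the test (fitted log2 fold change 0.21, SE 0.14, adjusted p = 0.459), so a rise was not shown by it. Such a bound sets the mean of the brighter group against the lowest signal of a detected probe, or the probe's own signal where that was higher. With the mean of both tested probes in place of the brighter one, the log2 fold change of Gpat4 was 0.55 and still passed (adjusted p = 0.0393). Since the dimmer probe entered the test only through the DEX arrays, this mean adds no support beyond that of the brighter probe.

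Gpat3, another acyltransferase of the endoplasmic reticulum and known to increase when preadipocytes become adipocytes, moved in the other direction. Its brightest probe (ILMN_2675268) gave log2 signals of 10.41, 10.70 and 10.69 in vehicle and 9.02, 9.72 and 10.08 in DEX. The groups did not overlap, but the DEX arrays were spread over more than 1 log2 unit, with replicate 1 the lowest. The mean went from 10.60 ± 0.165 to 9.61 ± 0.542 (SD, n = 3 each), a log2 fold change of -0.99 (SE 0.25, 95% confidence interval -1.55 to -0.43, adjusted p = 0.0463). Raw signals were 1569, 1708 and 1900 in vehicle and 606, 812 and 1068 in DEX.

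A second Gpat3 probe (ILMN_1241390) moved the same way. It read 8.91, 9.29 and 9.48 in vehicle and 7.68, 8.10 and 8.79 in DEX, again without overlap. Its log2 fold change of -1.04 (SE 0.27) was close to that of the brighter probe but missed the threshold (adjusted p = 0.0531), and with the replicate number as a block it passed (adjusted p = 0.00398). The call of the brighter probe was near its limit. Leaving out vehicle replicate 1, 2 or 3 gave an adjusted p of 0.0778, 0.168 or 0.140, leaving out DEX replicate 1 or 2 gave 0.0523 or 0.110, and setting no detection filter gave 0.193. The direction was negative under each of these. With the replicate number as a block, the brighter probe had an adjusted p of 0.00778.

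Gpam, the GPAT of the outer mitochondrial membrane, had the dimmest representative probe of the step. ILMN_2655954 read 5.91, 5.88 and 6.11 in vehicle and 5.28, 5.78 and 6.44 in DEX. The DEX arrays lay on both sides of the vehicle arrays. The log2 fold change was -0.14 (SE 0.26, 95% confidence interval -0.72 to 0.44, adjusted p = 0.822), and its sign turned to 0.14 without DEX replicate 1. This interval leaves room for a change of either sign, so the value does not show that Gpam was unaffected.

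The AGPAT step makes phosphatidic acid. Of its 3 isoforms, Agpat4 rose and Agpat2 and Agpat3 did not pass. Agpat4, an acyltransferase described best in brain, read 7.12, 7.41 and 7.16 in vehicle and 8.79, 8.78 and 8.15 in DEX (ILMN_2960714). All DEX arrays were above all vehicle arrays, with DEX replicate 3 the lowest of its group. The mean went from 7.23 ± 0.154 to 8.57 ± 0.367 (SD, n = 3 each), a log2 fold change of 1.34 (SE 0.20, 95% confidence interval 0.90 to 1.79, adjusted p = 0.00329). Raw signals were 230, 233 and 230 in vehicle and 529, 464 and 342 in DEX. The call held under each alternative and without any 1 array, at adjusted p-values of up to 0.0311.

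Agpat2 is the isoform whose loss in humans causes a congenital lipodystrophy. Its representative probe (ILMN_1217252) read 11.14, 11.56 and 11.17 in vehicle and 10.62, 11.03 and 10.88 in DEX. The DEX arrays were all lower than the vehicle arrays, yet the difference did not pass (log2 fold change -0.45, SE 0.18, 95% confidence interval -0.85 to -0.05, adjusted p = 0.182). A second probe (ILMN_1215901) read 10.91, 11.29 and 11.27 in vehicle and 10.31, 10.93 and 10.93 in DEX, with overlap, and gave nearly the same value (log2 fold change -0.43, adjusted p = 0.272). The probes therefore gave alike values that missed the threshold. With each array scaled to its median in place of quantile normalization, the first passed (adjusted p = 0.0478).

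Agpat3, an isoform of the endoplasmic reticulum and Golgi, had log2 signals of 9.56, 9.45 and 9.72 in vehicle and 9.22, 9.26 and 10.19 in DEX (ILMN_1226540). DEX replicate 3 was above, and the other DEX arrays below, the vehicle arrays. The log2 fold change was -0.02 (SE 0.25, 95% confidence interval -0.58 to 0.54, adjusted p = 0.977), and its sign was positive when vehicle replicate 3 (0.05), DEX replicate 1 (0.15) or DEX replicate 2 (0.13) was left out.

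Lipins are phosphatidic acid phosphatases, and Lpin1, the gene mutated in the fatty liver dystrophy mouse, is the lipin best known in adipose tissue. Lpin1 had the largest change among the members, and Lpin2 did not pass. The representative Lpin1 probe (ILMN_2507725) read 9.58, 10.04 and 10.02 in vehicle and 11.28, 11.26 and 11.49 in DEX. Every DEX array was over 1 log2 unit above every vehicle array. The mean went from 9.88 ± 0.261 to 11.34 ± 0.125 (SD, n = 3 each), a log2 fold change of 1.46 (SE 0.17, 95% confidence interval 1.08 to 1.84, adjusted p = 7.64e-04).

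The second tested Lpin1 probe (ILMN_3111744), which the array annotation assigns to another transcript of the gene, read 9.26, 9.66 and 9.72 in vehicle and 10.99, 10.91 and 11.39 in DEX. It rose 2.93-fold (log2 fold change 1.55, SE 0.19, adjusted p = 9.48e-04), so both detected probes of Lpin1 rose by similar amounts. By log2 fold change they ranked 198 and 217 from the top of the 16317 tested probes. The remaining Lpin1 probes (ILMN_2592546 and ILMN_2738580) were detected on no array, although the annotation assigns them to the same transcripts as the detected probes. Probe positions were not checked, so it is not shown that separate transcripts rose.

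Lpin2, a lipin with wider tissue distribution, was read close to background. ILMN_1220680 read 5.22, 5.39 and 5.49 in vehicle and 5.42, 4.72 and 5.10 in DEX, detected on 3 vehicle and 2 DEX arrays. The groups overlapped, and the log2 fold change was -0.29 (SE 0.19, 95% confidence interval -0.72 to 0.15, adjusted p = 0.452). Its other 3 probes were detected on no array.

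The promoter windows of the lipins and of Agpat4 are shown because DEX acts through the glucocorticoid receptor, which binds paired copies of the hexamer AGAACA, which is read on the opposite strand as TGTTCT. RefSeq windows on GRCm38.p6, from 250 bases before to 50 bases after an annotated start, were matched by symbol for 7 of the 10 members, with 10 windows in all. Gpat4, which rose, Dgat1, which fell, and Dgat2 had no window and were not searched. The hexamer was searched on both strands and is in capitals where found. It was in 2 of the 10 windows, and in 19.0% of all 32851 windows of this length. In the Lpin1 window, on the minus strand at chr12:16610917-16611216, it began 163 bases before the start, and in 1 of the 3 Lpin2 windows, on the plus strand at chr17:71204404-71204703, 203 bases before the start. The Agpat4 window, on the plus strand at chr17:12119034-12119333, did not hold these letters. The lipin that rose and the lipin that did not pass thus each had a window with a single hexamer. The paired copies, as an exact match, were in 0 of the 10 windows and in 3 of all 32851. Sites farther than 250 bases before a start were not searched.
Lpin1: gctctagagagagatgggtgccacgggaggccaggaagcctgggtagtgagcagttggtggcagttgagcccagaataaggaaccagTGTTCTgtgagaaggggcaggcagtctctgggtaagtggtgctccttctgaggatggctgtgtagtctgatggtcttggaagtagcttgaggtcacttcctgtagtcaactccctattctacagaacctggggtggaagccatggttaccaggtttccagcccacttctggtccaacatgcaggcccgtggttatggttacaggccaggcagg
Lpin2: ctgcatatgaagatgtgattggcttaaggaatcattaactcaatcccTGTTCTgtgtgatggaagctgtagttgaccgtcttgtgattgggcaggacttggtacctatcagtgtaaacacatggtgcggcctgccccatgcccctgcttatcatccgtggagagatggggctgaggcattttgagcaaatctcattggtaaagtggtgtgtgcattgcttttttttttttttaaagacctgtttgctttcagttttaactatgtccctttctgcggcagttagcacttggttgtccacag
Agpat4: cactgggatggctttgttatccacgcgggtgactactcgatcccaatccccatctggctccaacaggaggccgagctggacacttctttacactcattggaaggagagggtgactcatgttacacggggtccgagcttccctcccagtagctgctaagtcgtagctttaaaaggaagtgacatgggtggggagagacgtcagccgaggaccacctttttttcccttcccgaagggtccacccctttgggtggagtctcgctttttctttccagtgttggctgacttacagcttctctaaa

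DGAT enzymes catalyse the last step, the making of triglyceride, by proteins that are unrelated in sequence. Dgat1 fell after DEX, and Dgat2 did not pass. Dgat1 (ILMN_2807284) read 10.75, 10.52 and 10.45 in vehicle and 10.11, 9.85 and 9.68 in DEX. The groups did not overlap. The mean went from 10.58 ± 0.156 to 9.88 ± 0.219 (SD, n = 3 each), a log2 fold change of -0.69 (SE 0.17, 95% confidence interval -1.07 to -0.32, adjusted p = 0.0365). This call too was near its limit. It became 0.121, 0.131 or 0.0800 when vehicle replicate 1, 2 or 3 was left out, 0.116 or 0.0688 when DEX replicate 2 or 3 was, and 0.0785 with no detection filter, all with a negative fold change. With the replicate number as a block, Dgat1 had an adjusted p of 0.0118.

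Dgat2, which uses newly made fatty acids and without which mice are born nearly devoid of fat, read 12.15, 12.44 and 12.43 in vehicle and 11.57, 12.15 and 12.73 in DEX (ILMN_1219915). DEX replicate 1 was the lowest and DEX replicate 3 the highest of the 6 arrays. The log2 fold change was -0.19 (SE 0.26, 95% confidence interval -0.78 to 0.40, adjusted p = 0.746), and it turned to 0.10 without DEX replicate 1.

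**Figure D2:**
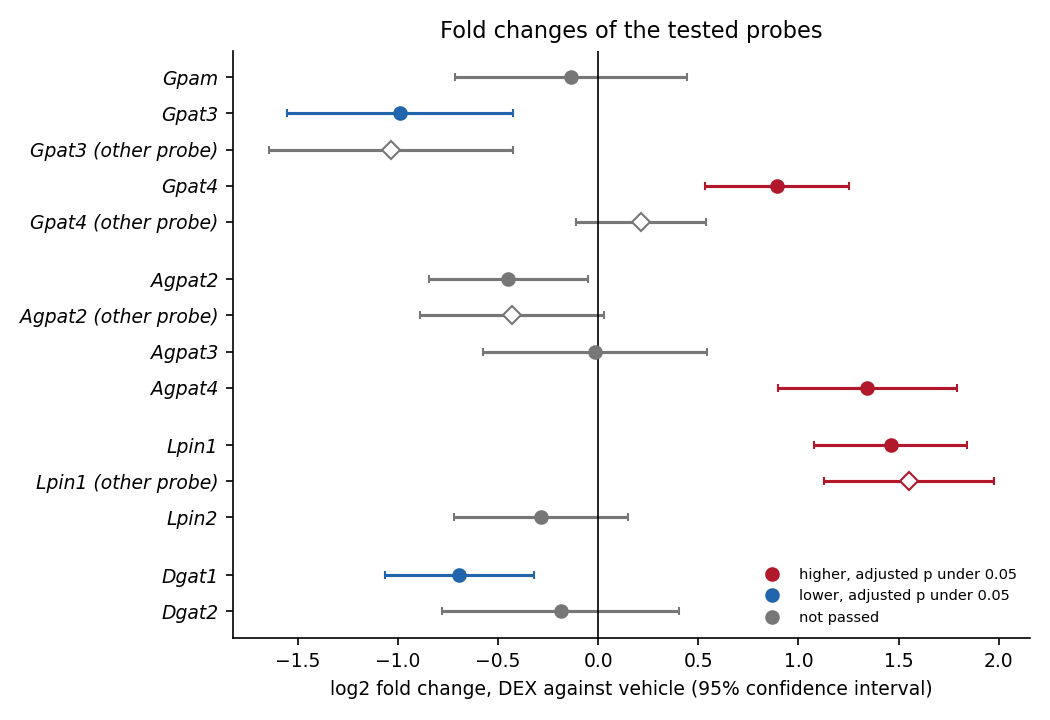
Log2 fold change of DEX against vehicle (horizontal axis) with its 95% confidence interval for the 14 tested probes of the 10 isoforms, grouped by step; filled circles are representative probes and open diamonds other probes. Red and blue mark the 4 probes that were higher and the 2 that were lower at an adjusted p under 0.05, and grey those that did not pass. The intervals of Gpam, Agpat3, Lpin2 and Dgat2 and of the other probes of Gpat4 and Agpat2 include 0.

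Counted over probes, 14 of the 22 were tested, and 8 were not because fewer than 3 arrays detected them. Of the 14, 4 were higher and 2 were lower. Among all 16317 tested probes 6.8% were called, 4.25% as higher and 2.55% as lower. Another scaling moved the balance of all calls: 62.5% of the called probes were higher with quantile normalization and 46.8% with median scaling, which put the median log2 fold change of all probes at -0.127 in place of -0.0442. No member changed sign with that scaling. All 4 genes with more than 1 tested probe had the same sign in both probes. For Gpat4 this is no separate evidence, since its dimmer probe passed the detection filter only through the DEX arrays. The agreement can thus be read for Gpat3, Agpat2 and Lpin1 only.

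Whether the isoforms of a step shifted relative to each other was asked within each array, as the log2 difference between the signals of 2 isoforms. The size of such a difference depends on the probes, so only its change from vehicle to DEX was read. In 6 of the 8 pairs the DEX and vehicle arrays did not overlap, as in 30.4% of all pairs of tested genes, and the 8 pairs are not independent since they share genes. For Gpat4 against Gpat3 and for Agpat4 against Agpat2 the separation was fixed beforehand. Each gene of these pairs had groups without overlap, in opposite directions, so their ratios add nothing to the single-gene values. With 3 arrays against 3 the exact permutation test cannot go below p = 0.10, and these 6 pairs were at that value (two-sided exact permutation test, adjusted p = 0.133 over the 8 pairs), so none could pass 0.05. Between arrays of the same replicate number, each of the 8 differences shifted the same way in 3 of 3 pairs, for which the smallest exact sign-flip permutation p is 0.25. Each difference was written so that its mean shift was positive. The share of all pairs of tested genes that shift the same way throughout was not counted.

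The largest change was that of Gpat4 against Gpat3. The difference was 1.70, 1.46 and 1.37 log2 units in vehicle and 3.71, 3.37 and 3.10 in DEX, a shift of 1.88 ± 0.203 (SE), or 3.69-fold in the ratio. Gpat4 against Gpam went from 6.19, 6.28 and 5.94 to 7.44, 7.31 and 6.75, a shift of 1.03 ± 0.237. Gpam against Gpat3 went from -4.49, -4.82 and -4.57 to -3.73, -3.94 and -3.65, a shift of 0.85 ± 0.132. All 3 GPAT pairs were thus separated on every array, the last although Gpam by itself overlapped between groups.

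In the AGPAT step, Agpat4 against Agpat2 went from -4.02, -4.16 and -4.01 in vehicle to -1.82, -2.25 and -2.73 in DEX, a shift of 1.79 ± 0.266. Agpat4 against Agpat3 shifted by 1.36 ± 0.549, but DEX replicate 3 (-2.04) lay only 0.00955 above vehicle replicate 2 (-2.05), so that the separation rested on a margin far smaller than the spread. Agpat3 against Agpat2 overlapped, with a shift of 0.43 ± 0.374 (exact permutation p = 0.4). By replicate number its shifts were 0.19, 0.34 and 0.76, and the mean shift was 0.13 without DEX replicate 3, 0.67 without DEX replicate 2 and 0.24 without vehicle replicate 2.

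Lpin1 against Lpin2 went from 4.36, 4.65 and 4.54 to 5.86, 6.54 and 6.39, a shift of 1.75 ± 0.223, although Lpin2 was near background. Dgat2 against Dgat1 overlapped. It read 1.40, 1.92 and 1.98 in vehicle and 1.46, 2.30 and 3.05 in DEX, a shift of 0.51 ± 0.497 (exact permutation p = 0.4). By replicate number the shifts were 0.06, 0.38 and 1.08, all positive but of unlike size, and the mean shift was 0.12 without DEX replicate 3, 0.92 without DEX replicate 1 and 0.32 without vehicle replicate 1.

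**Figure D3:**
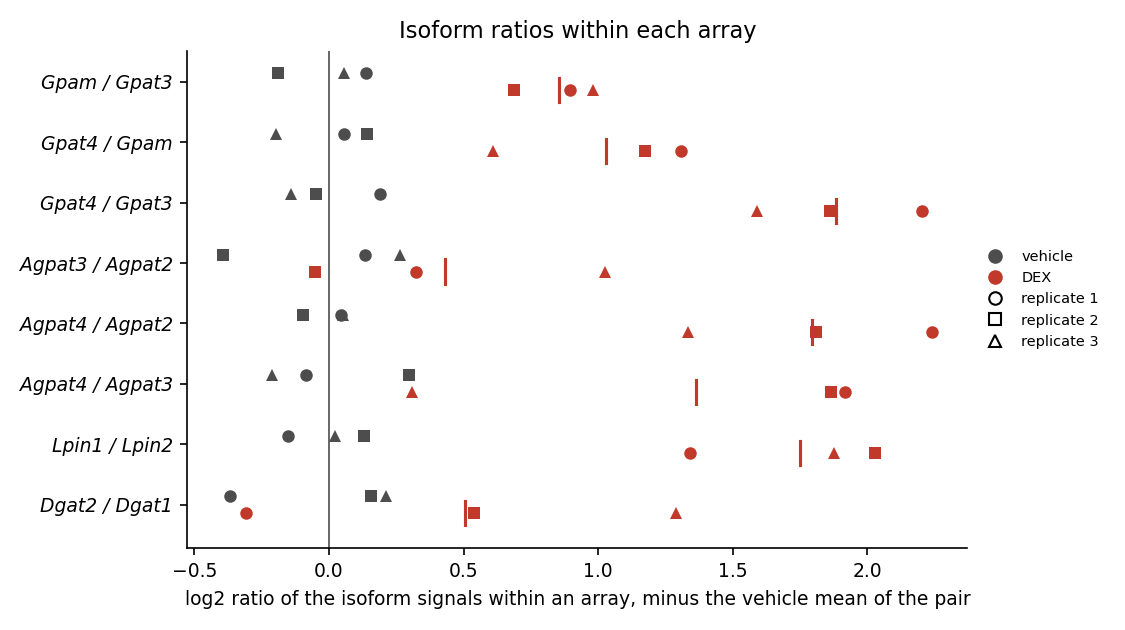
Log2 ratio of 2 isoforms of the same step within each array, minus the vehicle mean of that pair (horizontal axis), for the 8 pairs, with vehicle arrays in grey, DEX arrays in red, the replicate number as the symbol and the DEX mean as a red line. The DEX arrays lie to the right of all vehicle arrays in 6 pairs, by 0.00955 log2 units for Agpat4 and Agpat3, and overlap them for Agpat3 and Agpat2 and for Dgat2 and Dgat1.

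The spread between arrays of the DEX group was larger than that of the vehicle group for 8 of the 10 representative probes, all but Agpat2 and Lpin1. The share of all tested genes with a wider DEX spread was not counted, so this cannot be called particular to these isoforms. DEX replicate 1 was the lowest of its group for 6 members (the lowest for 29.6% of all tested genes), and DEX replicate 3 was the highest for 6 (34.6% of all genes). Gpam, Gpat3, Agpat3 and Dgat2 showed the widest spread, with DEX replicate 3 at 0.48 to 0.63 log2 units above the group mean. Agpat4 and Dgat1 went the other way, with DEX replicate 3 the lowest. Vehicle replicate 1 was the lowest of its group for 6 members (37.0% of all genes). The replicate that was low or high was thus not the same for every isoform, and its part in each result is given by the values without it.

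**Figure D4:**
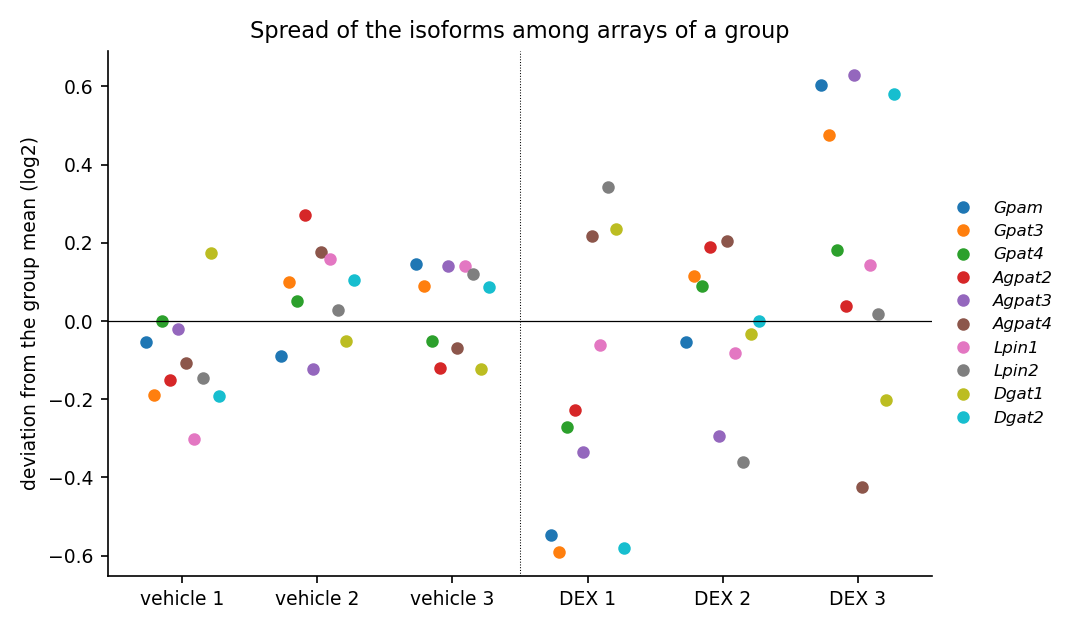
Deviation of each isoform from the mean of its group (vertical axis, log2 units) on the 6 arrays, with a colour per isoform. Most points of DEX replicate 1 lie below 0 and most of DEX replicate 3 above, with Agpat4 and Dgat1 on the opposite side in both.

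The other genes of the pathway were taken from 7 further lists. Of their 79 genes 71 had a probe and 46 were tested, of which 0 rose, 2 fell and 44 did not pass, where 7.58% of all genes were called. At an unadjusted p under 0.05, 3 were higher and 10 lower, where 10% of all genes were higher and 11.9% lower. With the replicate number as a block, 5 were lower: besides Pemt and Acsl3, these were Gpd1, Plpp1 (log2 fold change -0.66, adjusted p = 0.0331) and Dgkz (-0.70, adjusted p = 0.0368), named after their values were seen. Leaving out vehicle replicate 1 or 3 left 1 lower gene, leaving out vehicle replicate 2 or DEX replicate 2 left 0, and leaving out DEX replicate 1 gave 3. The median log2 fold change of the 46 genes was -0.10, beside -0.06 over all tested genes.

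Most other isoforms of the same steps had no tested probe. Of 13 such genes 4 were tested and 4 did not pass, among them Plpp3, a lipid phosphate phosphatase of the cell surface, at a log2 fold change of -0.01 (adjusted p = 0.984). Plpp1, a related phosphatase, did not pass by its brightest probe (-0.66, adjusted p = 0.180), while of its dimmer probes ILMN_1258830 was lower (-0.64, adjusted p = 0.0462) and ILMN_1222991 did not pass (-0.54, adjusted p = 0.196). Gpat2, Agpat5, Lpin3, Mogat1 and Mogat2 were among the untested. None of the 4 tested genes for cofactors of lipin and of lipid storage passed, with Fitm2, which acts in lipid droplet formation, at 0.36 (adjusted p = 0.213). None of 4 tested genes for glycerol 3-phosphate supply passed either. Gpd1, which makes glycerol 3-phosphate from a glycolytic intermediate, was at -0.68 (SE 0.18, adjusted p = 0.0601), without overlap between groups, and had an adjusted p of 0.0130 with the replicate number as a block. Gpd1 also passed without background correction (0.0406), with offset 50 (0.0380), with median scaling (0.0133), with the authors' lumi values (0.0376) and with array weights (0.0116). It did not pass with no detection filter, on probes detected on all 6 arrays, or with any 1 array left out.

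The phospholipid branches compete with triglyceride for phosphatidic acid and diacylglycerol. Of 16 tested genes 1 was lower and 15 did not pass. Pemt, which methylates phosphatidylethanolamine to phosphatidylcholine, read 8.18, 8.53 and 8.09 in vehicle and 7.56, 7.32 and 7.06 in DEX. The groups did not overlap, and the fall was 1.94-fold (log2 fold change -0.95, SE 0.18, adjusted p = 0.0136), with an adjusted p of 0.0798 or 0.0550 when vehicle replicate 2 or DEX replicate 2 was left out, and 0.0594 with no detection filter. Chpt1, a cholinephosphotransferase that uses diacylglycerol, was at -0.04 (adjusted p = 0.924).

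Of 9 tested genes for acyl-CoA supply 1 was lower and 8 did not pass. Acsl3, an acyl-CoA synthetase of the endoplasmic reticulum and lipid droplets, read 9.94, 10.10 and 10.10 in vehicle and 9.09, 9.46 and 9.59 in DEX. It fell 1.58-fold (log2 fold change -0.66, SE 0.17, adjusted p = 0.0467), without overlap. Leaving out vehicle replicate 1, 2 or 3 moved the adjusted p of Acsl3 to 0.0836, 0.192 or 0.157, leaving out DEX replicate 1 or 2 to 0.0890 or 0.106, and setting no detection filter to 0.10. Dbi, the acyl-CoA binding protein, did not pass (-0.07, adjusted p = 0.822). The list of lysophospholipid acyltransferases and related enzymes had 5 tested genes (Lpcat3, Lpgat1, Gnpat, Agps and Tmem68). All 5 did not pass, with Lpcat3 at -0.10 (adjusted p = 0.766). Among 4 tested diacylglycerol kinases 4 did not pass, with Dgkq at -0.04 (adjusted p = 0.932).

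The plot of fold changes under alternative processing shows how far each isoform's value depended on it. Lpin1, Agpat4 and Gpat4 passed in all 14 alternatives, with log2 fold changes between 1.30 and 1.54, 1.03 and 1.56, and 0.74 and 1.03. Gpat3 ranged from -1.23 to -0.70 and lost its call in 6 of the 14, and Dgat1 ranged from -0.86 to -0.60 and lost its call in 6. Agpat2 was negative throughout, from -0.62 to -0.31, and passed in 1. Lpin2 ranged from -0.48 to -0.10 and did not pass in any alternative; it was -0.11 without DEX replicate 2 and -0.46 without DEX replicate 1.

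**Figure D5:**
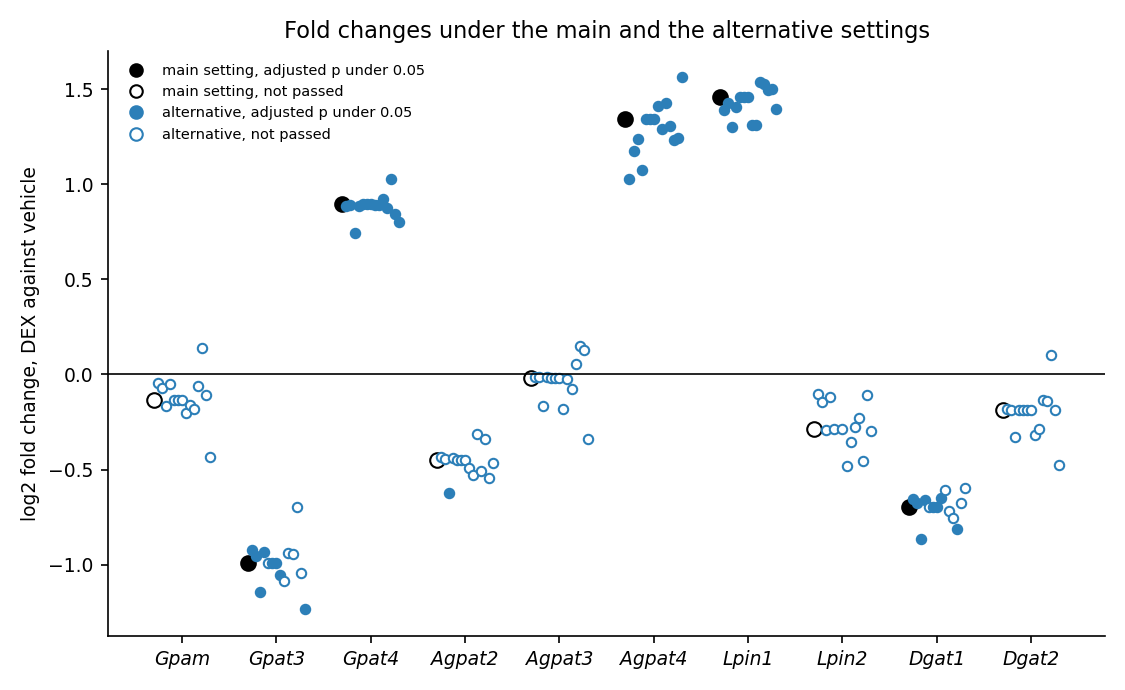
Log2 fold change of the representative probe of each isoform (vertical axis) under the main setting (black) and up to 14 alternatives (blue), filled where the adjusted p was under 0.05. Lpin1, Agpat4 and Gpat4 are filled throughout, Gpat3 and Dgat1 are filled in 8 of 14 alternatives, and Gpam, Agpat3 and Dgat2 have values on both sides of 0.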

How the data were processed

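Total RNA from 3 vehicle and 3 DEX samples was labelled and hybridised to MouseWG-6 BeadChips by the authors, who deposited probe intensity values on a linear scale, neither background-corrected nor normalized, with a detection p-value per probe and array, and a second set of intensity values pre-processed by the authors with lumi (version not given in the sources used here). On the raw intensities, limma 3.58.1 in R 4.3.3 was used for normexp background correction from detection p-values (offset 16), quantile normalization and log2. The 16317 probes that 3 or more of the 6 arrays detected (p under 0.05) were fitted with lmFit and eBayes, two-sided. The method was first tried on simulated arrays with independent noise. These lacked the shared deviations of same-numbered arrays given below, so the trial does not vouch for calls near the threshold. Symbols came from the platform annotation (34885 probes with 1 symbol, 18 with several, 10378 with none). All members were named, and from each other list up to 4 genes that passed and the brightest that did not. Members and lists were chosen with earlier results of these data known. Same-numbered arrays deviated together (correlations 0.440, 0.296 and 0.249, other pairs -0.37 to 0.104), while the labels gave only a number. The main fit did not use these pairs, and a fit with the replicate number as a block was an alternative. Alternatives were offset 50, no background correction, median scaling, the lumi values, no or a stricter detection filter, array weights, the replicate block, the mean of a gene's probes, and each array left out.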

Additional observations from a re-analysis of the deposited data

Results flagged for a closer look

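Outside the tested probes, 1 Gpat4 probe (ILMN_2918402) gave a signal above background in DEX arrays only. It was detected on 2 DEX arrays and on 0 vehicle arrays, too few for the test. Its log2 signals were 4.57, 4.63 and 4.92 in vehicle and 4.86, 5.49 and 5.16 in DEX, which overlap. The bound on the change between its group means was 1.11-fold higher in DEX, with DEX replicate 1, not detected, in that mean. It takes no account of the spread, so a rise was not shown. The other 7 untested probes of the isoforms were detected on no array.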

How the results depend on the processing

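Lpin1, Agpat4 and Gpat4 kept their direction and their call in all 14 processing alternatives, and at the 2-fold threshold Gpat4 (1.86-fold) was not counted. The 2 lower genes became 0 with no detection filter and 0 at the 2-fold threshold, and 0 to 1 with 1 array left out; without the filter 45281 probes were tested. The 2 lower probes became 4 with median scaling and 0 with no detection filter, and 0 to 2 with 1 array left out. In the other pathway lists, array weights gave 1 higher gene (main 0) and 5 lower (main 2), the replicate block 5 lower, no detection filter 0 lower, and leaving out 1 array 0 to 3 lower. The shift of Agpat4 against Agpat2 was 1.46 without background correction (main 1.79). Among contrasts that overlapped, 1 array left out moved Dgat2 against Dgat1 (main 0.51) to between 0.12 and 0.92 and Agpat3 against Agpat2 (main 0.43) to between 0.13 and 0.67. Fold changes that reversed were those of Gpam (0.14 without DEX replicate 1), Agpat3 (0.05 without vehicle replicate 3, 0.15 without DEX replicate 1, 0.13 without DEX replicate 2) and Dgat2 (0.10 without DEX replicate 1), none of them past the threshold; leaving out DEX replicate 3 gave their lowest values, -0.44, -0.34 and -0.48. With the replicate block Gpat3 and Dgat1 had adjusted p-values of 0.00778 and 0.0118, and the block changed no call of the isoforms other than that of the second Gpat3 probe. Over all probes, the block gave 1027 higher and 843 lower calls and array weights 1388 and 1376, against 693 and 416, and leaving out 1 array gave 399 to 779 and 127 to 521. The lipin contrast could not be computed on probes detected on all 6 arrays. The cause of these differences was not tested. Signals of Gpam, Lpin2 and the dimmer Gpat4 probes, near the lowest detected log2 signals of 4.97 to 5.05, limit what could be read of them, and 3 arrays per group limit the precision.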
